A study of Mus musculus with 6 samples.

Results

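Among CD45+ cells sorted from mouse brains bearing U87 glioma, 112 of 40411 cell barcodes had the transcript profile of Ly6c2-positive classical monocytes. They were chosen by their counts of unique molecular identifiers (UMIs, each standing for 1 captured transcript). Of the barcodes with more than 200 genes and under 5% of UMIs on mitochondrial genes (39642 in all), a monocyte had at least 1 UMI of Ccr2, at least 5 of Lyz2 and at least 1 of Ly6c2. It also had at most 1 UMI of Cd209a, fewer than 10 of S100a8 and S100a9 together, and under 1% of its UMIs on 6 genes of microglia (Cst3, C1qa, C1qb, C1qc, P2ry12 and Tmem119). Counts of these 12 genes and of the mitochondrial genes set the membership, so they are given only as a description.

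Classical monocytes are made in the bone marrow, carry Ly6C at a high level on the surface in the mouse, and need the chemokine receptor CCR2 to leave the marrow and to enter inflamed tissue. There they can become macrophages or antigen-presenting cells with features of dendritic cells. Microglia, by contrast, are macrophages that settle the brain in the embryo and maintain themselves locally.

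The cells came from 6 female SCID mice, which lack mature T and B cells, each given 50000 U87 cells, a human glioma line, in the brain. In 3 mice (IL-33) the implanted cells expressed the cytokine IL-33 and the brain was taken after 3 weeks. In the other 3 (pcDNA) they were the vector control and the brain was taken after 6 weeks, so IL-33 and time could not be told apart. The growth protocol gave the age at implantation as 8 weeks, and the age label as 6 to 8 weeks. The tumor-bearing hemisphere was dissociated, leukocytes were enriched on Percoll and sorted for CD45, and 3′ libraries were made with 10x Chromium v2 chemistry. All cells were deposited in 1 count matrix whose barcodes end in a suffix from 1 to 6. No GEO label ties a suffix to a mouse. The cell numbers and median depths that the study lists for its libraries equal those of the suffixes in order, pcDNA libraries first and IL-33 libraries after them, but a match of values is not a label and was not used to group the cells. The matrix was therefore treated as 1 pooled sample, suffixes were given only as the spread within it, and no comparison of IL-33 with pcDNA was made.

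Barcode sequences recurred across suffixes. Of 29579 distinct sequences, 3890 occurred under more than 1 suffix and 490 under all 6, which together covered 14722 barcodes (36.4%). Between 509 and 3428 sequences were shared by each pair of suffixes, and over these the log UMI totals correlated with Pearson's r from 0.216 to 0.914. The recurring barcodes were shallow, with a median of 929 UMIs against 3137 for the rest. They made up 37.1% of microglial cells (over 3% of UMIs on the 6 microglial genes) but 6 of the 112 monocytes (5.36%). The 6 barcodes that shared a sequence with a monocyte included no other monocyte and 4 microglial cells. Without recurring barcodes, 106 monocytes remained.

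Monocytes had a median of 4535 UMIs (1545 to 9515) and 1732 genes, against 2483 UMIs in the 38493 microglial cells (97.1% of those passing). Their 512708 UMIs made 1 UMI worth 1.95 CPM (counts scaled to a total of 1000000), and a count of 0 over all of them allowed up to 5.85 CPM. The comparison cells with 2 or more UMIs of Cd209a, the gene of a lectin that marks monocyte-derived dendritic cells, numbered 95 (median 5292 UMIs). They had the same limits on S100a8, S100a9 and microglial genes, and no condition on Ccr2, Lyz2 or Ly6c2. All intervals are 95% intervals of counting error only (exact Poisson for levels, exact binomial for shares and ratios). They do not cover differences between mice, and no test across mice was run. Where a count was 0, the level or share it allowed was instead 3 counts over the total. Folds given as at least used the same bound. For 0 UMIs in the monocytes the exact interval reached 7.195 CPM.

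By barcode suffix, monocytes were unevenly spread. Suffix 4 held 43 (0.689% of its barcodes that passed the gene and mitochondrial limits, 0.499 to 0.927) and suffix 6 held 40 (0.655%, 0.469 to 0.891). There were 13 in suffix 5 (0.198%, 0.105 to 0.338), 12 in suffix 2 (0.119%), 3 in suffix 1 (0.0386%) and 1 in suffix 3 (0.0353%). The intervals of suffixes 4 and 6 did not overlap those of the others. The Cd209a cells followed a related pattern, with 34 in suffix 4, 21 in suffix 5, 40 in suffix 6 and none in suffixes 1 to 3, where a count of 0 allowed up to 0.0386%, 0.0297% and 0.106% respectively.

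**Figure D1:**
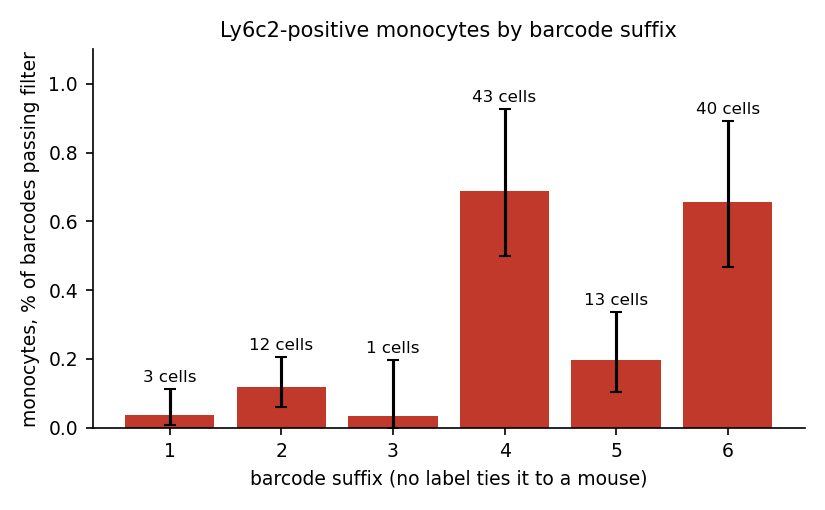
Share of barcodes passing the gene and mitochondrial limits that were Ly6c2-positive monocytes (y axis, %) for each barcode suffix (x axis); bars start at 0, lines are exact 95% binomial intervals and numbers are cells. Suffixes 4 (0.689%) and 6 (0.655%) held the highest shares.

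The label of classical monocyte was checked on 3 further markers that the selection did not use. Plac8, a small cysteine-rich protein abundant in myeloid cells, was found in 111 of the 112 cells. Its level was 3634 CPM (3470.5 to 3803), or 3825, 3317, 4308, 3689, 2663 and 3959 CPM in suffixes 1 to 6, against 15.2 CPM in microglial cells. Every suffix was thus near the pooled value. F13a1, the A subunit of coagulation factor XIII, stood at 460.3 CPM (403 to 523) and was found in 75 cells. By suffix it was 1275, 614, 1206, 409.9, 526 and 333 CPM, each far above the 1.28 CPM of microglial cells. Chil3, a chitinase-like secreted protein (Ym1), was confined to fewer cells: 41 of 112 (36.6%, 27.7 to 46.2) held its 174 UMIs, at a pooled 339 CPM, and its level by suffix was 372, 381, 1034, 310.2, 625 and 236 CPM. The highest value in the last series, that of suffix 3, rested on 1 cell.

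Shares of cells with a transcript depend on depth and on free RNA in the droplets, so each cell was also thinned to 1000 UMIs and set beside natural killer (NK) cells, which should lack these genes (105 cells, median 1804 UMIs, 98 deep enough). After thinning, Plac8 was found in 86.6% of monocytes and 4.08% of NK cells (99.1% and 6.67% unthinned). F13a1 was found in 27.7% and Chil3 in 19.6% of thinned monocytes and in none of the 98 NK cells, which allows a share of up to 3.06% (67.0% and 36.6% of unthinned monocytes). For all 3 markers the monocytes were above the background of this sort, as taken from NK cells. That does not make each marker particular to monocytes. Granulocytes (defined below) had more Chil3, at 804.5 CPM (591.1 to 1069.8) against 339.4 in monocytes. They had less Plac8 (188.3 CPM) and no UMI of F13a1. Among thinned Cd209a cells, Plac8 was found in 63.16%, F13a1 in 18.95% and Chil3 in 1.053%.

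Markers of other cells were low in CPM, though some were higher than in the comparison cells. Of 9 lymphocyte and NK genes, 8 had no UMI in any monocyte, including Cd3e, Cd79a, Ncr1 and Gzma, and the list summed to 1.95 CPM (its most abundant gene, Nkg7, had 1 UMI). The 10 granulocyte genes that the selection did not use summed to 220.4 CPM, led by Csf3r at 115 CPM, against 99007 CPM in granulocytes (50 or more UMIs of S100a8 and S100a9), and Ly6g, Ngp, Camp, Ltf and Mmp9 were at 0. The same sum was 61.8 CPM in Cd209a cells and 287.8 in microglial cells. Of the compared genes, 2 of 2 (Csf3r and Mmp8) were higher than in Cd209a cells (median ratio 3.92), and 1 of 2 was higher than in microglial cells. Higher and lower follow the 2-fold rule given below. By it, 26.6% of all compared genes were higher than in microglial cells, and 6.62% were higher and 6.68% lower than in Cd209a cells. The 9 genes of border macrophages, those of the meninges and perivascular spaces, summed to 298 CPM, led by Clec4n at 154 CPM, and Cd163, Lyve1, Pf4 and Folr2 were at 0. This border sum was 12.1 CPM in microglial cells and 335 in Cd209a cells. Of the compared border genes, 2 of 2 were higher than in microglial cells (median ratio 50.8) and 1 of 3 was lower than in Cd209a cells. The 8 genes of non-classical, patrolling monocytes summed to 329.6 CPM against 155.6 in Cd209a cells and 125.1 in microglial cells, with none at 0. Treml4 had 6 UMIs, Ace 12 and Spn 5 in all 112 cells, and the list was led by Nr4a1, also an early-response gene, at 126.8 CPM. Of the 2 genes abundant enough to compare, Itgal was higher than in microglial cells (33.4-fold) and Nr4a1 than in Cd209a cells (2.27-fold, no longer called at 1.82 without suffix 2 or at 1.97 where Cd209a cells also had to hold Ccr2 and Lyz2).

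Other markers were also compared just inside and just outside the limits. The 24 monocytes with 1 Ly6c2 UMI had 3595 CPM of Plac8, 339 of F13a1 and 281 of Chil3. The 88 with 2 or more had 3643, 491 and 354 CPM. Other genes differed between these sets: H2-Aa was at 2878 CPM in the 24 cells against 1270 in the 88, and Cd74 at 7084 against 3182. Ace, of the non-classical list, had 9 UMIs in the 24 cells and 3 in the 88. Just outside, 44 cells met every condition but had no Ly6c2 UMI. They had 1827 CPM of Plac8, 286 of F13a1 and 276 of Chil3, with 6210.0 CPM of H2-Aa. Another 31 cells were kept out only by Cd209a, and had 2986 CPM of Plac8 and 538 of F13a1 but 1 UMI of Chil3. The microglial limit kept out 51 cells (median 7599 UMIs, 1569 CPM of Plac8). Monocytes held 0.129% to 0.970% of their UMIs on the 6 microglial genes, median 0.439%. The 8 monocytes with 0.7% or more had lower marker levels, with 2147 CPM of Plac8, 209.5 of F13a1 and 78.5 of Chil3. Their H2-Aa was at 7409 CPM and their Cd74 at 15840 CPM. The limit of 5 Lyz2 UMIs lay in an empty range, since the lowest monocyte had 20 and the 30 cells it kept out had at most 3. Only 3 cells were kept out by Ccr2 and 1 by S100a8 and S100a9.

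The promoters of the markers were examined because these genes were high together in the monocytes. The RefSeq sequences (GRCm38.p6), from 250 bases before to 50 after the start of transcription, are shown for Ly6c2 (chr15:75111922-75112221), Plac8 (chr5:100572156-100572455), F13a1 (chr13:37050195-37050494) and Chil3 (chr3:106167515-106167814), all on the minus strand. Capitals mark GAGGAA, or its reverse complement, the core bound by PU.1, a transcription factor of the myeloid lineage.
Ly6c2: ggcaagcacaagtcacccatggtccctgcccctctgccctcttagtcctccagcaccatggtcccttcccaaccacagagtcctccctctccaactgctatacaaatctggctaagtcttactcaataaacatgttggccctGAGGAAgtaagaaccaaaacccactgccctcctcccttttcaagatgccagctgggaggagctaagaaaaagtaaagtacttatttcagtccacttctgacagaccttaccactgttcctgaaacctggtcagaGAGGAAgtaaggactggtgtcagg
Plac8: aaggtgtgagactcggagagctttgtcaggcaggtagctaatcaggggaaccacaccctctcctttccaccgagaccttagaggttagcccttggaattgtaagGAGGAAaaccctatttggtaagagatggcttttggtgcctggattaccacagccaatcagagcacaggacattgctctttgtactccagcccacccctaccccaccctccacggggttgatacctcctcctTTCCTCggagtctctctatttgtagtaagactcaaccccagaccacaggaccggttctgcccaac
F13a1: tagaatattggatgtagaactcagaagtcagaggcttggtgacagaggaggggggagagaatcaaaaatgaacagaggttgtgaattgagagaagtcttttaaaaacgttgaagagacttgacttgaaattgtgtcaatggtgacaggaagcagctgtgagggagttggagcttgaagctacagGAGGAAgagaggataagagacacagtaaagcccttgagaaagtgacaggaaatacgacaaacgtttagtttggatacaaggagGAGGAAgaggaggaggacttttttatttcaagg
Chil3: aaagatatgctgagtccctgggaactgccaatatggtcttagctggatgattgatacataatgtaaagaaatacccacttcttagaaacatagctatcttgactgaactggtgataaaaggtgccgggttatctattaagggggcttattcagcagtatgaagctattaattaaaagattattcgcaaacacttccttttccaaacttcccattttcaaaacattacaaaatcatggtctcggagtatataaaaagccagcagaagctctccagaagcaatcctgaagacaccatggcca
GAGGAA on either strand occurred in 3 of the 4 windows, with 2 matches each in Ly6c2, Plac8 and F13a1, and in 28.3% of 32851 promoters of the same length. TTGCNNAA on either strand, letters of a C/EBP site, occurred in none of the 4 and in 10.8% of all. A match describes letters only, and a window without one says no more than that.

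Against microglial cells the monocytes differed in a large part of their transcripts. A gene was called higher or lower when its pooled CPM differed at least 2-fold, reached 50 CPM in the higher population, and lay on the same side in suffixes 4 and 6, the only ones with 20 cells of each kind. Of 3475 genes compared, 926 (26.6%) were higher in monocytes and 700 (20.1%) lower, with a median log2 ratio of 0.30 over all of them. With ratios divided by their median, 690.0 were higher and 873 lower, so which side held more genes depended on the scaling. With each suffix left out in turn and with recurring barcodes left out, 773 of the 926 and 580.0 of the 700 kept their call in every case, and lists are given with the number that did so where it was smaller. The genes of the selection were left out of these counts. Without recurring barcodes 939 were higher and 680 lower. The gene lists described next were drawn up with earlier results of these data known.

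All 12 compared genes of the classical monocyte list were higher than in microglial cells, with a median ratio of 128. Besides the markers they included Hp (haptoglobin, which binds free hemoglobin) at 843 CPM against 5.77 and Mgst1 (a microsomal glutathione transferase) at 472 against 2.52. Fn1 (fibronectin) stood at 453 CPM against 14.0, and Gda (guanine deaminase) at 242 against 1.02. The list's 13 genes that the selection did not use summed to 9645 CPM in monocytes and 132 in microglial cells. Their sum was 9569 CPM in granulocytes and 5544 in Cd209a cells, so the list as a whole was not particular to monocytes. The 11 compared microglial genes were all lower, with a median ratio of 0.0211. Fcrls (333 CPM in microglial cells) had no UMI in any monocyte and was at least 57.0-fold lower. Sall1, a transcription factor of microglial identity, had none either (75.8 CPM in microglial cells). Without suffix 6 the bound for Fcrls was 37.1-fold.

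All 18 compared calcium-binding, annexin and cytoskeletal genes were higher, with a median ratio of 64.0. Lgals3 (galectin-3) stood at 2758 CPM against 24.6, S100a6 at 3052 against 21.6, Vim (vimentin) at 2157 against 16.9 and Anxa2 at 1319 against 10.4. Of 11 adhesion genes 7 were higher and 1 lower. Itga4, the integrin chain that binds VCAM-1, was 23.5-fold higher and Emb (embigin) 116-fold (190.1-fold without suffix 6), while Itgb2 and Itgam, the chains of the integrin Mac-1, were at 363 against 319 CPM and 193 against 328 CPM, within the 2-fold limit. The Ifitm genes, which encode membrane proteins that restrict virus entry, were higher in 4 of 4, led by Ifitm3 at 5465 CPM against 104.

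In the ranking by ratio, limited to genes of at least 100 CPM, the 12 highest were Dmkn, Prtn3, Ly6c1, F13a1, F10, Sirpb1b, Cxcl1, Sirpb1c, Plac8, Tfec, Gda and Napsa, from 1239-fold down to 215-fold. Dmkn, which leads it, encodes a secreted protein best known from skin (dermokine). It was found in 19 of the 112 monocytes, at 135 CPM (105 to 170.3) against 0.109, and stood at 216 CPM in Cd209a cells. Ly6c1 (378 CPM against 0.958) is a near-identical neighbor of Ly6c2, and reads may have been divided between them. F10, coagulation factor X, stood at 239.9 CPM against 0.692. Prtn3, proteinase 3 of azurophil granules, rested on few cells, since 58.3% of its 60 UMIs lay in 3 monocytes, and its ratio went from 987 to 545 without suffix 1 and to 1672 and 1591 without suffixes 4 and 6. Leaving out suffix 4 moved Dmkn to 1951-fold, suffix 6 moved F10 from 347-fold to 627-fold, and Cxcl1 (258-fold) ran from 142 without suffix 2 to 423 without suffix 5. The 8 lowest genes were all without a UMI in the monocytes: Hpgds (hematopoietic prostaglandin D synthase) was at least 81.6-fold lower, Bhlhe41 at least 36.4-fold, and Cables1, Fcrls, Gas6, Mlph, Nav3 and Rasgrp3 at least 18.2-fold. These bounds move with the monocytes' depth, and without suffix 6 they were 52.2-fold for Hpgds, 23.6-fold for Bhlhe41 and 11.7-fold for Cables1.

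Several groups ran the other way. All 11 compared immediate early and heat shock genes were lower in monocytes, with a median ratio of 0.211: Jun was at 1297 CPM against 12443, Fos at 2235 against 10598 and Egr1 at 312 against 2375. Such genes are induced within minutes by many stimuli. Of 13 compared genes of macrophage differentiation and lipid handling, 9 were lower (7 in every case) and none higher, among them Ctsd (cathepsin D, 513 CPM against 11514), Cd81 (42.9 against 3814) and Trem2 (a lipid-sensing receptor, 107 against 2063). Of 15 transcription factors 9 were lower (6 in every case) and 2 higher. Cebpb, a C/EBP factor of monocytes, was 4.94-fold higher at 3015 CPM, found in all 112 monocytes, and Bhlhe40 20.1-fold higher, whereas Klf2 was 14.8-fold lower. Spi1, the gene of PU.1, was at 673 against 416 CPM.

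**Figure D2:**
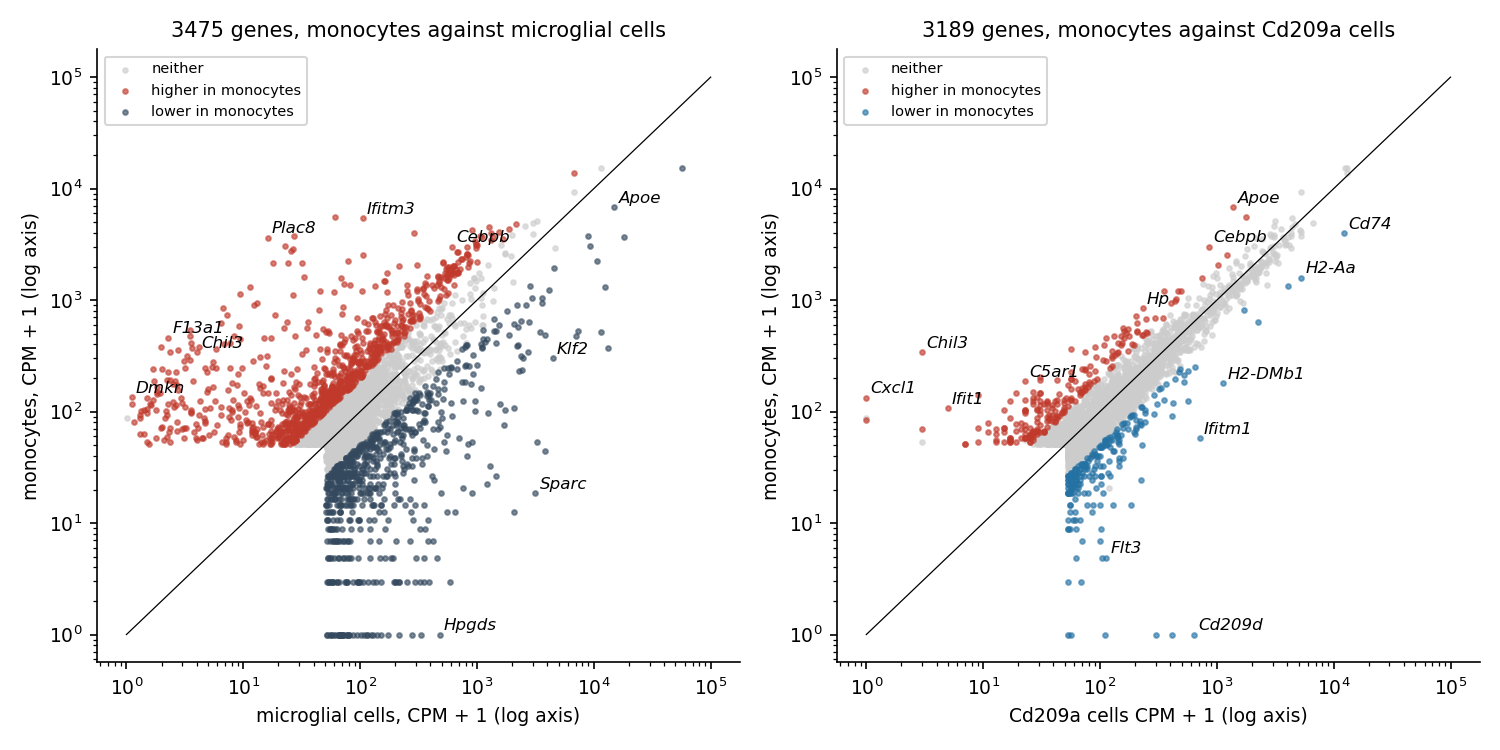
Pooled level of each compared gene in the 112 monocytes (y axis, CPM + 1, log axis) against microglial cells (left) and Cd209a cells (right); colors mark genes called higher or lower in monocytes and the line marks equal levels. Genes called higher number 926 of 3475 on the left and 211 of 3189 on the right, where most genes lie near the line.

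The Cd209a cells were far closer to the monocytes. Of 3189 genes compared with them, 211 (6.62%) were higher in monocytes and 213 (6.68%) lower, with a median log2 ratio of -0.08. Without recurring barcodes both counts were 207. With each suffix and recurring barcodes left out, 124 of the 211 and 92 of the 213 kept their call in every case. The calcium-binding and cytoskeletal group was nearly level, with 0 of 18 higher and 1 lower (Lsp1, ratio 0.478, and 0.540 without suffix 4 or where Cd209a cells also had to hold Ccr2 and Lyz2), and glycolysis likewise, with 0 of 12 higher and 1 lower (Pfkp, 0.489, but 0.598 without suffix 6 and 0.524 under the same condition). Both groups thus stood apart from microglial cells, where 18 of 18 and 9 of 12 were higher, and not from Cd209a cells.

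Within the classical monocyte list 5 of 12 were higher than in Cd209a cells and none lower. Chil3 gave the greatest contrast, with 1 UMI in the 95 Cd209a cells against 174 in the monocytes, a ratio of 170.1 (30.1 to 6758). It was 107 without suffix 6, and the UMI in Cd209a cells lay in suffix 5, without which it was at least 40.2-fold. Hp was 3.64-fold higher, Mgst1 3.59-fold (5.75-fold without suffix 6), Gda 3.46-fold and Fn1 2.84-fold. By suffix Hp was 584, 1277, 517, 925, 477 and 778 CPM in monocytes and 227, 260 and 223 CPM in the Cd209a cells of suffixes 4 to 6, so that the ranges did not overlap. F13a1 (ratio 1.91) and Plac8 (1.69) were within the 2-fold limit, as were Ms4a4c (1.26) and Ccr1 (1.61). Only 59 of the 95 Cd209a cells also met the limits on Ccr2 and Lyz2, and against these Chil3 was 111-fold higher, Hp, Mgst1 and Gda 2.37-, 2.37- and 2.25-fold, and Fn1 (1.92-fold) was no longer called.

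**Figure D3:**
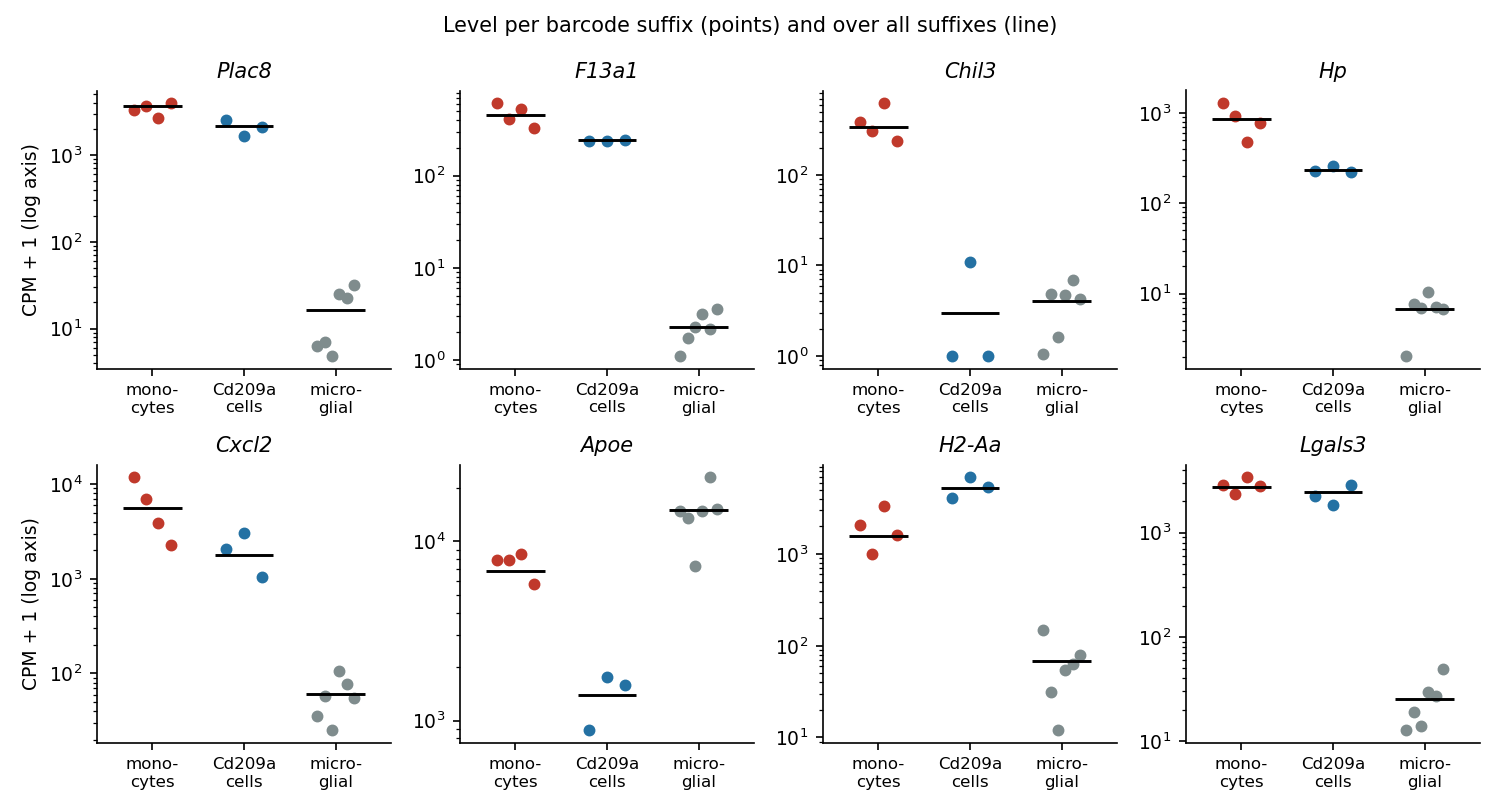
Levels of 8 genes (y axes, CPM + 1, log axes) in monocytes, Cd209a cells and microglial cells; points are barcode suffixes with at least 10 cells of the kind and lines are the level over all suffixes. Chil3 and Hp separated monocytes from Cd209a cells, Apoe was higher and H2-Aa lower in monocytes, and Lgals3 overlapped.

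Antigen presentation divided the pair in the opposite sense. Of 8 MHC class II genes compared, 7 were lower in monocytes than in Cd209a cells (median ratio 0.327), 5 of them in every case, with H2-DMb2 lost without suffix 4 (0.502) and Ciita without suffix 6 (0.624). All 8 were higher than in microglial cells (median ratio 11.7; 6 in every case). For H2-Aa, H2-Ab1 and H2-Eb1 the excess was carried by a minority, since 25 of the 112 monocytes held 96.7% of their UMIs. Cd74 had 27, 185 and 1822 UMIs in monocytes with no UMI, 1 to 9, and 10 or more UMIs of these 3 genes. H2-DMa was spread more widely, with 149, 127 and 211 UMIs in the same order. The 63 monocytes without a UMI of H2-Aa, H2-Ab1 or H2-Eb1 were chosen by that absence. Their Cd74 (96.4 CPM, against 290 in all microglial cells) is therefore given as a level only. H2-Aa, an alpha chain of class II, was at 1594 CPM in monocytes, 5259 in Cd209a cells and 67.0 in microglial cells. Cd74, the invariant chain, was at 3967, 12197 and 290 CPM (13.7-fold higher than in microglial cells, and 21.8-fold without suffix 1), and H2-DMb1, which helps to load peptide, at 179, 1135 and 40.0 CPM. Of the 10 compared genes of the dendritic list 7 were lower, 4 of them in every case (3 if Cd209a cells also had to hold Ccr2 and Lyz2): Flt3, the cytokine receptor of dendritic cell development, had 2 UMIs in the monocytes and 56 in Cd209a cells (ratio 0.0349, 0.00413 to 0.132, and 0.0181 without suffix 1 or 0.0566 without suffix 6), Clec10a was at a ratio of 0.0752 (0.116 without suffix 4), and Mgl2 was at least 18.8-fold lower with no UMI (8.12-fold without suffix 6, and below the CPM minimum among Cd209a cells with Ccr2 and Lyz2). The lectin genes next to Cd209a showed the same, with no UMI of Cd209d or Cd209e in any monocyte (at least 109-fold and 51.1-fold lower, and 65.8-fold and 17.5-fold without suffix 6). Cd7 was at least 70.9-fold lower (43.5-fold without suffix 4, and 27.3-fold against Cd209a cells with Ccr2 and Lyz2), and Ifitm1 was at 56.6 CPM against 714, unlike Ifitm2, Ifitm3 and Ifitm6, which stayed within the limit.

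C5ar1, the receptor of complement C5a, was 8.44-fold higher than in Cd209a cells (185 CPM against 21.9; 5.36-fold without suffix 4 and 13.1-fold without suffix 6) and C3ar1, that of C3a, 7.40-fold (25.4-fold without suffix 6). Of 11 chemokine ligands 5 were higher and none lower, with Ccl2 (3.69-fold) losing its call without suffix 4 (1.79-fold) and Ccl4 (2.08-fold) without suffix 2 (1.52-fold), suffix 3 (1.99-fold) or recurring barcodes (2.06-fold, with the suffixes no longer on 1 side). Cxcl1, a ligand of the neutrophil receptor CXCR2, had 68 UMIs in monocytes and none in Cd209a cells (at least 22.2-fold). It lay in 12 cells, and 34 of the UMIs were in suffix 2, without which it was at least 12.6-fold (14.1-fold without suffix 4). Cxcl2, a ligand of the same receptor, was 3.13-fold higher, at 5570.4 CPM (5368 to 5779) against 1778, and at 60.0 CPM in microglial cells. Of 11 compared pattern recognition and Fc receptors 6 were higher, among them Fcgr1 (the high-affinity IgG receptor, 2.69-fold), Clec4e (2.53-fold) and Msr1 (a scavenger receptor, 2.88-fold). Cebpb was 3.52-fold higher and Ifngr1, an interferon-gamma receptor chain, 3.09-fold. Hmox1 (heme oxygenase, 5.78-fold, and 10.7-fold without suffix 6) and Pla2g7 (platelet-activating factor acetylhydrolase, 6.46-fold, and 12.8-fold without suffix 6) were also among the 12 highest. Against Cd209a cells with Ccr2 and Lyz2, C5ar1 was 5.49-fold, C3ar1 4.82-fold and Cxcl2 2.06-fold higher, whereas 5 of the 6 pattern recognition and Fc receptors fell within the 2-fold limit: Fcgr1 (1.77), Clec4e (1.68), Msr1 (1.87), Fcgr3 (1.55, and 1.74 without suffix 4) and Tlr2 (1.91). Clec4d stayed higher (2.36), Pla2g7 was 4.20-fold higher, and Ccl2 (2.50) was no longer called. Against microglial cells the chemokine ligands went both ways. Of 12 compared, 4 were higher and 5 lower (4 and 3 in every case), with Ccl4 at a ratio of 0.127.

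Of cytokines, Il1b stood at 521 CPM in monocytes, 267 in Cd209a cells and 144 in microglial cells, and its antagonist Il1rn at 119, 47.9 and 1.99 CPM. Il1a was lower than in microglial cells, at 17.6 against 908 CPM. Osm (oncostatin M) was at 503 CPM against 188 in microglial cells. Il6 and Il10 had no UMI in the monocytes. Neither did Il1rl1, the gene of the IL-33 receptor ST2, which had 1.96 CPM in microglial cells, below the 5.85 CPM that a count of 0 allowed. Its partner chain Il1rap had 3 UMIs, so a difference in either was not detectable at this depth. Nos2, the gene of inducible nitric oxide synthase, had no UMI in the monocytes.

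**Figure D4:**
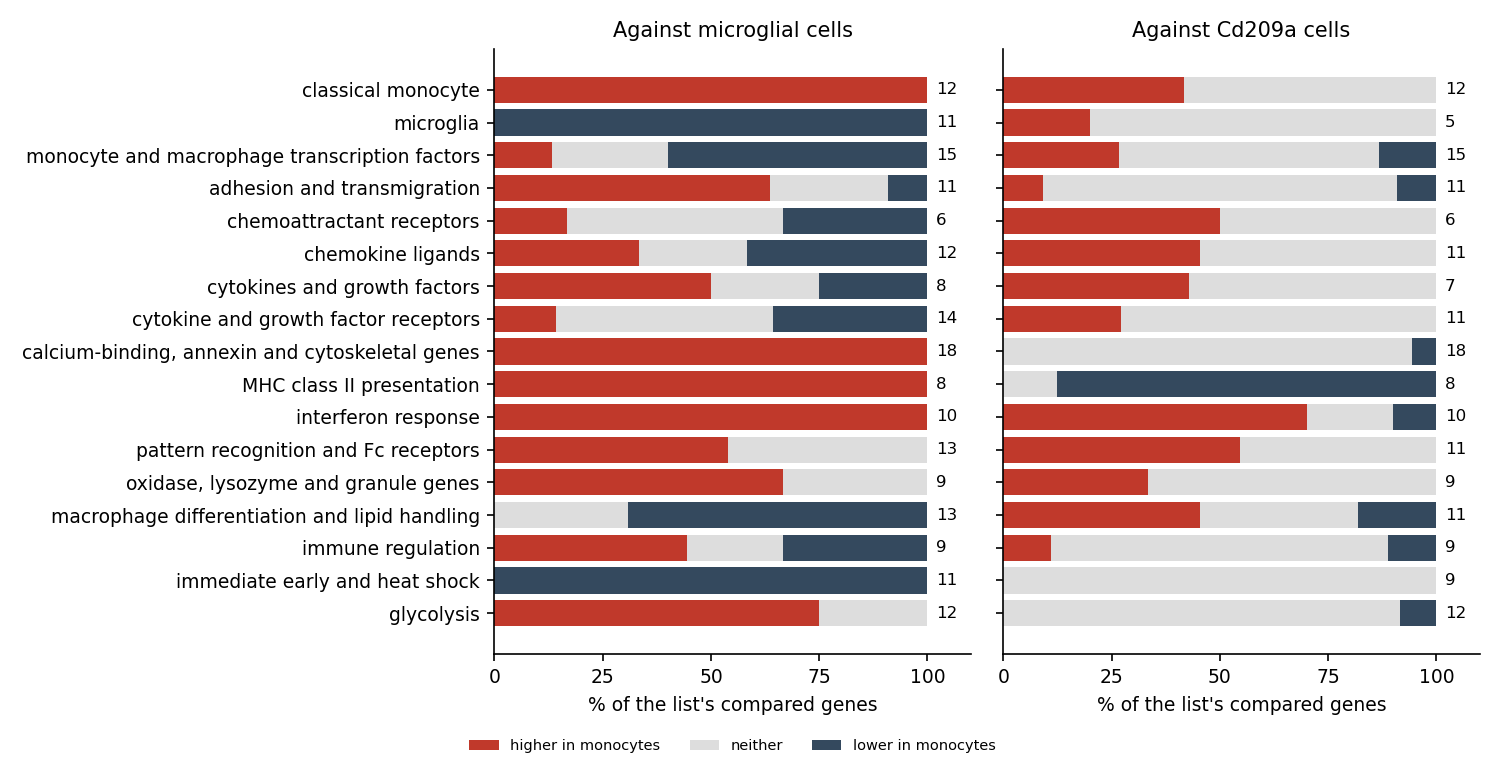
Share of each list's compared genes (x axes, %) called higher, lower or neither in monocytes against microglial cells (left) and Cd209a cells (right), with the number compared at the bar's end. Against all genes, 26.6% were higher and 20.1% lower on the left, and 6.62% and 6.68% on the right; MHC class II genes changed side between the panels (8 of 8 higher, 7 of 8 lower).

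Apoe, the lipid carrier apolipoprotein E, was 4.96-fold higher than in Cd209a cells (6842 CPM, 6618 to 7072, against 1381), and 2.19-fold lower than in microglial cells at 14952 CPM. Of the 11 genes of its list compared with Cd209a cells 5 were higher and 2 lower (5 and 0 in every case), with Ctsd 2.50-fold and Trem2 2.83-fold higher. For Apoe the difference from microglial cells was no longer called without recurring barcodes (ratio 0.658 in place of 0.458) and was at the limit without suffix 6 (0.5003). By suffix Apoe was 319, 7845, 2068, 7909.8, 8464 and 5762 CPM in monocytes and 883, 1748 and 1581 CPM in the Cd209a cells of suffixes 4 to 6. In those 3 suffixes, all values of monocytes were above all values of Cd209a cells. From cell to cell it ran from 0 to 32107 CPM with a median of 5065, and 6 monocytes had none, while the median was 193 in Cd209a cells and 0 in NK cells. Since microglia are the bulk of the sort and Apoe is abundant in them, another of their transcripts was set beside it. Sparc, a gene of microglia that the selection did not use, was at 17.6 CPM in monocytes (9 UMIs), 15.96 in Cd209a cells (8 UMIs), 37.8 in NK cells and 3161 in microglial cells, all but the last under the same limit on microglial genes. After thinning, Apoe was found in 82.1% of monocytes, 30.5% of Cd209a cells and 26.5% of NK cells (94.6%, 68.4% and 38.1% unthinned).

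The monocytes were not uniform. Genes were ranked by how far their counts spread from cell to cell beyond sampling, and the first 15 included Cd74, H2-Aa, H2-Ab1 and H2-Eb1 as well as Actb, Cxcl2, Apoe, Spp1, Ccl4, Ccl24, Ccl2 and Klf2. By UMIs of H2-Aa, H2-Ab1 and H2-Eb1 together, 63 of the 112 cells had none, 24 had 1 to 9 and 25 had 10 or more (22.3%, 15 to 31.2). The last share was 61.1% in Cd209a cells and 0.952% in NK cells. The 25 cells were spread over suffixes 2 (2), 4 (9), 5 (3) and 6 (11). Across the 112 cells H2-Aa followed H2-Ab1 (Pearson 0.941, Spearman 0.841 on log2(CPM + 100)) and Cd74 (0.921 and 0.886), all values sharing each cell's depth.

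Since the classes were cut on these counts, their other genes are given as levels only. From no UMI to 10 or more, Cd74 went from 96.4 to 15758 CPM and Apoe from 4910.3 to 12099.6 CPM (ratio 2.46, 2.29 to 2.66). Chil3 was at 478, 265 and 77.8 CPM over the 3 classes, F13a1 at 575, 454 and 190.3, Ly6c2 at 1642, 1087 and 848, and Lgals3 at 3190.2, 2807 and 1661. Plac8 was at 4036, 2490.3 and 3814 CPM and did not follow this order. The cells with 10 or more UMIs therefore had more Apoe and less of Chil3, F13a1 and Lgals3. Of the dendritic genes, Clec10a was at 14.3, 17.1 and 8.65 CPM over the classes against 182 in Cd209a cells, Flt3 had 1 UMI in the 25 cells, Napsa was at 467 CPM against 676 in Cd209a cells, and Itgb7 at 156 against 437. Apoe, at 12099.6 CPM, was far above the 1381 CPM of Cd209a cells.

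**Figure D5:**
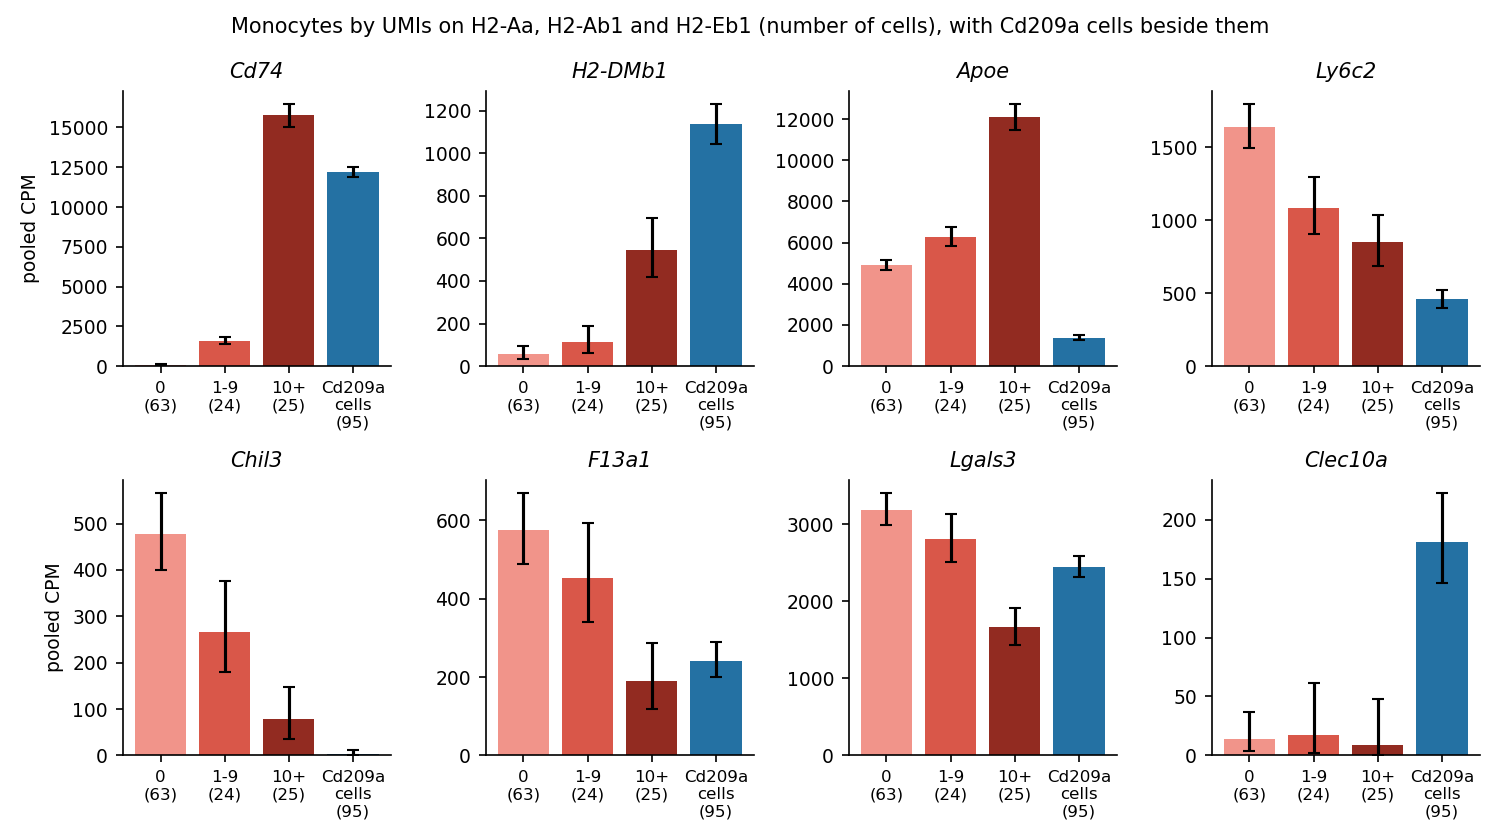
Pooled levels of 8 genes (y axes, CPM, from 0) in monocytes by their UMIs on H2-Aa, H2-Ab1 and H2-Eb1 (x axis; cells in parentheses) and in Cd209a cells; lines are exact 95% Poisson intervals. With more class II UMIs, Cd74 and Apoe were higher and Chil3, F13a1 and Lgals3 lower, while Clec10a stayed below 20 CPM in all 3 classes of monocytes.

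All 10 compared interferon-response genes were higher than in microglial cells (median ratio 15.8; 7 in every case, with Bst2 at 1.96 without suffix 2), and 7 of 10 were higher than in Cd209a cells, with 1 lower (Bst2, ratio 0.449, but 0.541 without suffix 5 and 0.908 against Cd209a cells with Ccr2 and Lyz2). Of the 7, Ifi27l2a (2.06-fold) was no longer called without suffix 6 (1.97) or against Cd209a cells with Ccr2 and Lyz2 (1.73), nor was Zbp1 (2.17-fold) against the latter (1.48). Ifit1 and Rsad2 fell below the CPM minimum without suffix 4. With suffixes and recurring barcodes left out, 4 of the 7 were thus called in every case (3 if Cd209a cells also had to hold Ccr2 and Lyz2). Isg15, a ubiquitin-like interferon product, was 4.60-fold higher than in Cd209a cells, Ifit1 26.9-fold (7.10 to 228; 2 UMIs in Cd209a cells; 12.1-fold without suffix 4, where its 36.1 CPM was below the minimum) and Irf7 2.69-fold. Some of these genes were concentrated in few cells. Over Isg15, Ifit1, Ifit2, Ifit3, Rsad2 and Usp18 summed, 9 of the 112 monocytes (8.04%, 3.74 to 14.7) had 10 or more UMIs and held 78.5% of all 363. The list's most abundant gene, Ifi27l2a at 2524 CPM, was not in this sum. No Cd209a cell reached 10, out of 95, which allows a share of up to 3.16%. Ifit1 and Rsad2 followed each other across the cells (Pearson 0.801, Spearman 0.699). Cxcl10, an interferon-induced chemokine, was narrower still, since 1 cell held 53 of its 71 UMIs. The ratio of 17.4 to Cd209a cells thus rested largely on 1 cell.

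A single monocyte of suffix 1 carried transcripts of granule enzymes made early in myeloid development. It had 8508 UMIs and 2678 genes, and its barcode sequence occurred under no other suffix. The study took cells with over 2500 genes for doublets, and whether this cell was one was not tested. It held 43 of the 44 Mpo (myeloperoxidase) UMIs, 18 of 20 of Elane (neutrophil elastase), all 14 of Ctsg (cathepsin G) and 24 of 60 of Prtn3. It also had 16 UMIs of Ly6c2, 31 of Plac8 and 12 of F13a1, and none of Chil3 or H2-Aa. Cell cycle genes lay in few cells: 3 of the 112 monocytes (2.68%, 0.556 to 7.63) had 3 or more UMIs over 7 of these genes, and Mki67 had 3 UMIs in all. The same share was 0.855% in microglial cells, 1.05% in Cd209a cells and 0.952% in NK cells, not matched for depth. Each lay within the monocytes' interval.

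Suffixes 4 and 6 held 83 of the monocytes. Among genes of at least 200 CPM the 8 with the greatest ratio between them were Ccl2, Egr1, Cxcl2, Irf8, Klf2, Atp5k, Gm10260 and Rassf4. Ccl2, the ligand of CCR2, was at 715 CPM in suffix 4 and 85.8 in suffix 6, and over suffixes 1 to 6 at 425, 729.7, 172, 715, 98.6 and 85.8 CPM. Cxcl2 was at 10732, 11759, 6548, 6885, 3895 and 2291 CPM in the same order. Suffixes 1 to 4 were thus above suffixes 5 and 6 for both genes, although suffixes 1 and 3 held 3 cells and 1 cell. Irf8, a transcription factor of monocyte and dendritic development, was at 316 CPM in suffix 4 and 123 in suffix 6. Klf2 ran the opposite way, at 161 against 408 CPM. These levels rested partly on few cells, since 3 monocytes held 38.2% of the UMIs of Ccl2, 33.6% of those of Irf8 and 37.7% of those of Klf2. Cebpb (3102 against 3128 CPM) and Plac8 (3689 against 3959) were nearly equal in the same suffixes, as was the chemokine gene Ccl4 (255 against 263 CPM). Microglial cells of suffix 4 and of suffix 6 also differed in number and depth (5933 with a median of 2526 UMIs, and 5759 with 3057), and the part of these in the values was not tested.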

How the data were processed

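Single-cell libraries of CD45+ cells from 3 IL-33 and 3 pcDNA mice were deposited as 1 matrix of UMI counts, which the authors made with Cell Ranger 3.1 on mm10; the submitters' notes also name Seurat 3.1.5. The deposited counts are not normalized: 31053 genes, 40411 barcodes and 105560763 UMIs, with 9745192 to 24393841 UMIs per suffix. The matrix holds the barcodes that Cell Ranger took for cells, before the authors' limits on genes and mitochondrial reads, and 3 libraries shared each sequencing kit. UMIs of the chosen barcodes were summed and scaled to CPM. The choice of cells by fixed UMI limits replaced clustering. No doublet caller was run, and a limit of 2500 genes was tried instead. No test was run, since barcodes are not replicates and no GEO label maps suffixes to the 6 mice. Named genes were the 12 highest and 8 lowest ratios per comparison at 100 CPM or more, the 15 most dispersed, the 8 that differed most between suffixes and the genes of 26 lists (313 of 316 list genes were matched); some of these genes are counted in their lists but not reported here by name. The cells and lists were chosen with earlier results of these data known. Depth-matched shares used 1000 UMIs per cell drawn at random. Promoters came from RefSeq (GRCm38.p6), matched by symbol, and 4 of 4 matched. Calculations used Python 3.11.15, numpy 2.4.6, scipy 1.17.1, pandas 2.3.3 and matplotlib 3.10.9, and the scripts were tested on simulated data. Alternatives were other limits for each gene of the selection and for the comparison cells, other CPM minimums, thinning, equal weights for suffixes, centring and leaving out each suffix.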

Additional observations from a re-analysis of the deposited data

How the results depend on the processing

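The number of monocytes and the 4 gene counts were recomputed under up to 25 other settings. Leaving out 1 suffix at a time gave 69 (without suffix 4) to 111 monocytes, with 72 without suffix 6. It gave 915 to 979 genes higher and 691 to 721 lower than in microglial cells, and 200 to 280.0 higher and 211 to 294 lower than in Cd209a cells. Where Cd209a cells also had to hold Ccr2 and Lyz2, 135 genes were lower in monocytes in place of 213. A minimum of 20 CPM gave 1360.0 genes lower than in microglial cells, and 398 higher and 503 lower than in Cd209a cells, and 100 CPM gave 396, 128 and 99, since fewer or more genes were tested. Thinning to 1000 UMIs per cell gave 378 higher and 456 lower than in Cd209a cells. Of 9794 gene ratios, 8602 stayed within their counting interval, 1188 moved beyond it and 4 of called genes turned; crossings of 1 by genes not called are not among these. Those 4 were Tnf over Cd209a cells after thinning (0.943) and, for monocytes without a class II UMI against microglial cells, Cd74 (0.333), H2-Aa (0) and H2-Ab1 (0), the last 2 by construction. Of 5911 called values 182 lost their call. For 3 genes the comparison population was at 0 UMIs and gave no ratio. Dividing ratios by their median gave 690.0 higher and 873 lower than in microglial cells, and 235 and 178 against Cd209a cells. Settings on centring, on recurring barcodes, on the cell with Mpo, on class II UMIs and on Cd209a cells without Ly6c2 were chosen after seeing the data. No paired analysis was possible because no result comes from a test. The monocytes' 512708 UMIs limit all levels, and a gene without a UMI in them could still have stood at up to 5.85 CPM.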

Other observations

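The 30 cells kept out of the monocytes only by their Lyz2 count shared Plac8 with them, at 2968 CPM, but had no UMI of F13a1, Chil3 or Hp, and 25 of the 30 had no Lyz2 UMI at all. Siglech and Ccr9, markers of plasmacytoid dendritic cells in the mouse, had 84 UMIs in 12 of them and 69 UMIs in 11, against 10 and 4 UMIs in all 112 monocytes. Nkg7 and Gzma, genes of cytotoxic lymphocytes, had 101 UMIs in 13 cells and 317 in 9, against 1 and 0 in the monocytes. These genes were chosen after their values were seen.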
